A study of Rattus norvegicus with 3 samples.

Results

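Cytokines are secreted proteins through which cells signal to each other, and chemokines are the small cytokines that attract migrating cells. Tendon fibroblasts are themselves a source of such signals, above all of the interleukin IL-6 and of the monocyte-attracting chemokines, and in many cells these genes are switched on through the transcription factor NF-kB. Their messengers were examined here in cultured tendon stem/progenitor cells (TSPCs) of rats of 3 ages. Members were found by symbol, and no measured value enters the rule itself. The rule was chosen with earlier results of these data known, so the shares of members below are descriptive and not an independent test. Taken was every probe set whose only gene symbol names a numbered CC or CXC chemokine, *Cx3cl1*, *Xcl1*, an interleukin or *Il1rn*. Also taken were those of a colony-stimulating factor, *Lif*, *Osm*, *Tnf*, a numbered TNF superfamily ligand or *Tslp*. This gave 84 probe sets, groups of short probes for 1 transcript, out of 31042, and 65 genes out of 14217 with a symbol of their own. Of the 65 genes, 52 had a single probe set and 13 had 2 or more.

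The cells came from the Achilles tendon of Sprague-Dawley rats aged 1 day (TSPCs-1d), 7 days (TSPCs-7d) and 56 days (TSPCs-56d). No agent or genetic change was applied to any group. All cultures shared low glucose medium with 10% fetal bovine serum and an initial growth as colonies from sparse seeding, and they were polyclonal. Tissue of at least 2 animals was mixed for each age, and RNA of passage 2 cells was hybridized to 1 Affymetrix array of the rat genome per age. Below, day 1, day 7 and day 56 stand for the age of the rats, and signals are given in that order. There is thus 1 array per group, no spread between cultures and no test, and age, culture and array cannot be told apart. In bulk RNA, fewer cells of a type and less RNA per cell cannot be told apart either.

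The tendon label was checked on marker genes. All 11 measured tendon and fibroblast markers were bright at day 7 and day 56 and 10 at day 1, with summed signals of 64340, 68257 and 72985. Most of each sum came from the collagen genes *Col1a1* (14491, 14736 and 14286), *Col1a2* (18751, 19315 and 18760) and *Col3a1* (15320, 14955 and 15491). The sums thus say little about the dimmer markers. *Scx*, the transcription factor of tendon progenitors, had signals of 2255, 2578 and 2569. Within this list 2 genes were past 2-fold higher (*Thbs4* and *Tnc*) and 1 lower at day 56 than at day 1. Over all genes 1.65% were higher and 1.37% lower in this comparison. *Thbs4*, a matrix protein gene of tendon, had 76.5, 340 and 348, and *Tnmd*, the tendon differentiation marker tenomodulin, had 543, 351 and 158, 3.44-fold lower at day 56 than at day 1. Signals are intensities on a linear scale. A signal was taken as dim under 48.9, the 25th percentile over all arrays, as bright from the median of 110.1 upward, and as faint in between. Of 19 macrophage and leukocyte markers, 5 or 6 were bright in each culture and 8 or 9 dim, and their summed signal was 1432, 1359 and 1574. By the brightest probe set, *Cd14* (162, 157 and 155), *Lyz2* (115, 138 and 198) and *Aif1* (209, 188 and 267) were bright in every culture. So were *Cd74* (143, 114 and 127) and *Laptm5* (146, 141 and 167). The other probe set of *Aif1* was dim at every age (9.35, 7.47 and 8.85), and that of *Laptm5* was faint (64.3, 69.6 and 81.2). *Cd68* was bright at day 1 and day 56 (122, 109 and 142.5). *Ptprc*, the pan-leukocyte antigen CD45, was dim throughout (20.8, 25 and 30.6). For neutrophil and mast cell markers the sums were 666.5, 597 and 813 over 9 genes, for T and NK cell markers 579, 447.5 and 613 over 10 genes, and for endothelial markers 737, 765 and 881 over 9 genes. Of these non-tendon markers 0 were past 2-fold (ratios as defined below) between day 56 and day 1. At day 7 *Cd4* was at least 2.59-fold lower than at day 1, and *Cd4* and *Kit* were past 2-fold lower than at day 56. Over all genes 0.802% were lower at day 7 than at day 1 and 1.32% lower than at day 56. The part of such cells in the results below was not tested.

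Most of these genes were not bright. A total of 24 of the 65 genes (36.9%) were bright in at least 1 culture, against 69.6% of all genes, and 17 (26.2%) were bright in all 3. The 17 were *Ccl2*, *Ccl7*, *Ccl19* and *Ccl20*, *Cxcl1*, *Cxcl3*, *Cxcl10*, *Cxcl12* and *Cxcl16*, *Il1a*, *Il6*, *Il11* and *Il17b*, *Csf1*, *Tnf*, *Tnfsf12* and *Tslp*. Another 7 were bright in some cultures, namely *Ccl3*, *Ccl5*, *Cx3cl1*, *Il12a*, *Il15*, *Il18* and *Il33*. At most faint signals were found for 25 genes, between 27.0 and 103, among them the IL-1 family gene *Il1b*, the T helper 2 cytokine genes *Il4* and *Il13*, the growth factor genes *Csf2* and *Csf3*, *Osm*, *Lif* and the osteoclast factor gene *Tnfsf11*. The other 16 were dim in every culture, between 9.02 and 48.8. They included the T cell growth factor gene *Il2*, *Il5*, *Il10*, the interferon-induced chemokine genes *Cxcl9* and *Cxcl11*, *Ccl22*, *Xcl1*, *Tnfsf4* and *Tnfsf10*. For dim genes no order of the ages was read.

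**Figure D1:**
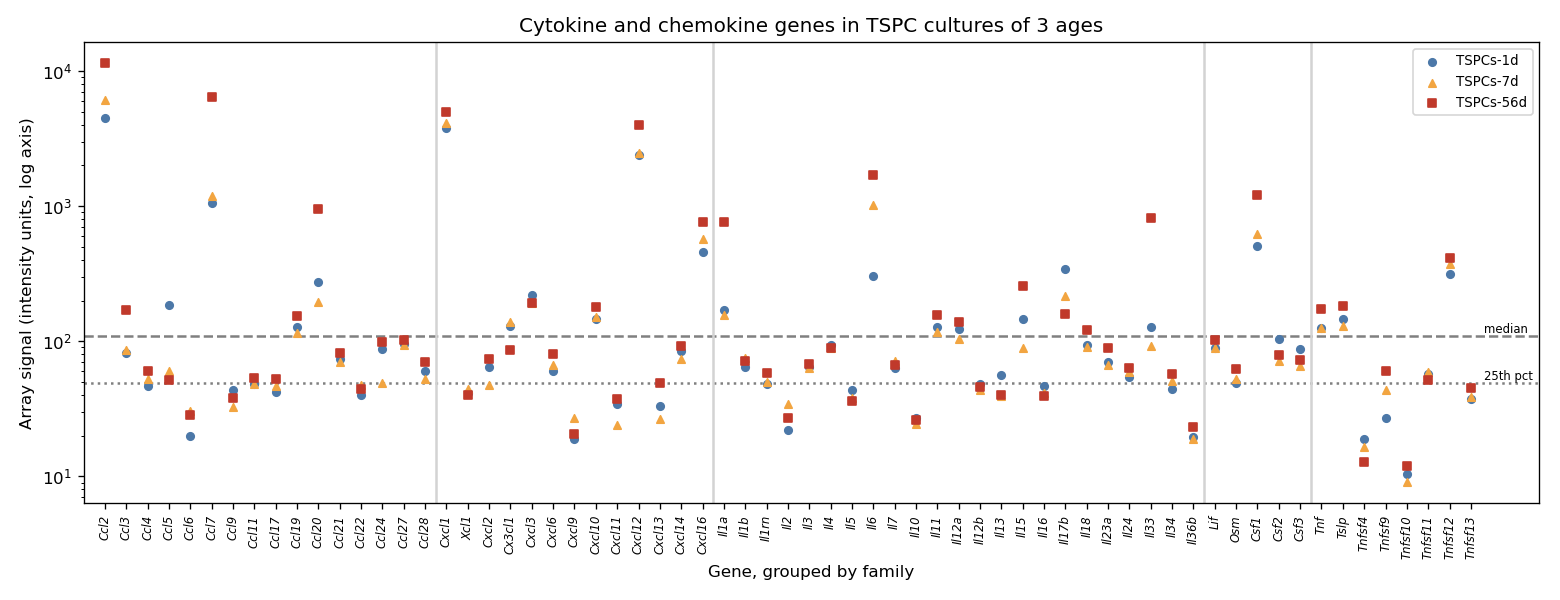
Array signal (intensity units, log axis) of each of the 65 genes in TSPCs-1d (circles), TSPCs-7d (triangles) and TSPCs-56d (squares), 1 array each, with the 25th percentile (dotted, 48.9) and the median (dashed, 110.1) of all signals. In 15 of the 17 genes bright in all 3 cultures the highest point is TSPCs-56d; levels of different genes are not comparable, since each probe set has its own response.

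Among the 17 genes bright in all 3 cultures, the highest signal lay at day 56 for 15 (88.2%) and at day 1 for 2 (*Cxcl3* and *Il17b*), where 39.5% of all 8903 such genes were highest at day 56. Of the 22 genes whose mean over the cultures reached the bright limit, 19 were highest at day 56 (86.4%, against 40.2% of all 9405 such genes). The mean includes the highest culture, so a gene can enter through it. *Ccl3*, bright at day 56 alone, did so (81.7, 86.7 and 171). This count therefore adds no support to that of the 17 genes. The median of all signals on the TSPCs-56d array was itself 0.095 higher on the log2 scale than on the TSPCs-1d array, and many of these differences are small.

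For fold changes, signals under 48.9 were raised to that value and a ratio over 2 or under 0.5 was counted. Between the day 56 and day 1 cultures, 8 genes were past 2-fold higher at day 56: the CC chemokine genes *Ccl2*, *Ccl3*, *Ccl7* and *Ccl20*, the interleukin genes *Il1a*, *Il6* and *Il33*, and the macrophage growth factor gene *Csf1*. They are 12.3% of the 65 genes, whereas 1.65% of all genes passed in this direction. Only *Ccl5* and *Il17b* were past 2-fold lower (3.08%, against 1.37% of all genes). By probe sets, 9 of 84 were higher (10.7%, against 1.09% of all) and 2 lower (2.38%, against 1.24%). Among the 17 genes bright in all 3 cultures, 6 were higher (35.3%), where 1.51% of all 8903 such genes were. Over all 65 genes the median log2 ratio was 0.16, with 16 genes at 0 because both signals were dim, and over all genes it was 0.00. Of the 25 genes at most faint, 20 had a ratio over 1, with a median ratio of 1.11. No background of genes of like brightness was taken, so these medians do not single out the cytokine genes.

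Against TSPCs-56d, TSPCs-7d had 6 genes past 2-fold lower and 0 higher. The 6 were *Ccl7*, *Ccl20*, *Ccl24*, *Il1a*, *Il15* and *Il33*, 9.23% of the 65 against 1.32% of all genes, while 1.71% of all genes were higher. By probe sets, 8 of 84 were lower (9.52%, against 0.918% of all) and 0 higher (1.18% of all). Of the 17 genes bright in all 3 cultures, 3 were lower (17.6%, against 1.33%). *Ccl24*, a chemokine of eosinophils, had signals of 87.8, 48.8 and 98.1 and was at no age bright. Its difference between day 7 and day 56 was 2.01-fold with or without the floor, just past the cutoff. With each array divided by its median, or with quantile normalization, 7 of the 84 probe sets were lower in place of 8. The median log2 ratio over the 65 genes was -0.16, against 0.00 over all genes, again without a background of like brightness. This comparison and that of TSPCs-56d with TSPCs-1d share the TSPCs-56d array, so a gene high on that array enters both.

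Few of the genes were past 2-fold between the younger cultures. In TSPCs-7d vs. TSPCs-1d, *Il6* was past 2-fold higher and *Ccl5* past 2-fold lower, each 1 of 65 genes (1.54%) and 1 of 84 probe sets (1.19%). Over all genes 1.7% were higher and 0.802% lower, and over all probe sets 1.04% and 0.631%, so these shares are near the background of the arrays. The other 16 genes bright in all 3 cultures had ratios between 0.63 (*Il17b*) and 1.34 (*Ccl2*).

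**Figure D2:**
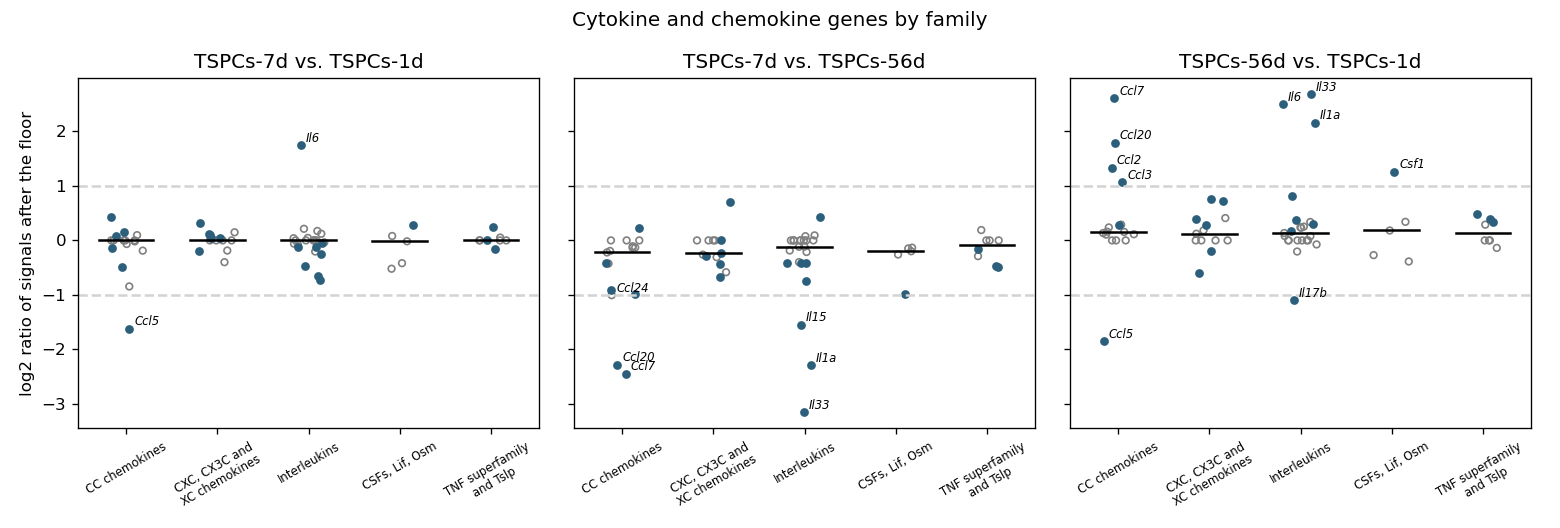
Log2 ratio of signals after the floor for the 65 genes (1 point per gene, filled where bright in at least 1 culture, open otherwise) by family in the 3 comparisons, with a bar at each family's median and dashed lines at 2-fold. Genes past 2-fold are named; TSPCs-56d vs. TSPCs-1d has 8 above and 2 below, TSPCs-7d vs. TSPCs-1d has 1 above and 1 below.

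The CC chemokines, which act mainly on monocytes, lymphocytes and eosinophils, included 4 of the 8 genes past 2-fold higher at day 56. *Ccl2* encodes the main monocyte attractant MCP-1. Its signal was 4509 at day 1, 6045 at day 7 and 11379 at day 56, so that day 56 was 2.52-fold above day 1 and 1.88-fold above day 7. *Ccl7*, a further monocyte attractant, stands next to *Ccl2* on chromosome 10 of rat assembly GRCr8. It had 1058, 1182 and 6449, so the younger cultures lay close together and day 56 was 6.09-fold and 5.46-fold above them. *Ccl11*, the next gene along and an attractant of eosinophils, stayed at 48.5, 48.6 and 53.7, near the dim limit. *Ccl2* and *Ccl7* are related in sequence, and how far their probes cross-hybridize was not tested.

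*Ccl20*, the ligand of the receptor CCR6, had signals of 274, 195 and 948. Day 56 was 3.47-fold above day 1 and 4.85-fold above day 7. *Ccl3*, an inflammatory chemokine of myeloid cells, was bright at day 56 alone (81.7, 86.7 and 171). Its 2.09-fold difference from day 1 became 1.96-fold once each array was divided by its median and to 1.55-fold with a floor at the median. *Ccl5*, known as RANTES and an attractant of T cells, ran the other way, with 186, 60.6 and 51.7. It was 3.07-fold lower at day 7 and 3.60-fold lower at day 56 than at day 1, and both older signals were faint. With the floor at the median its ratio was 0.59 in both comparisons, within 2-fold. *Ccl5* and *Ccl3* belong to a further run of neighbours on chromosome 10 together with *Ccl9*, *Ccl6* and *Ccl4*, none of which was bright. *Ccl19*, a chemokine of lymphoid tissue, had 126, 115 and 153. Of the 16 CC chemokine genes measured, 4 were thus past 2-fold higher (1.65% of all genes) and 1 lower (1.37% of all genes) at day 56 than at day 1.

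The CXC chemokines, many of which attract neutrophils, did not pass 2-fold in the brightest probe set of any gene. Of 13 genes with *Cx3cl1* and *Xcl1* counted in, 0 were past 2-fold in any of the 3 comparisons by this probe set. Over all genes, between 0.802% and 1.71% passed in each direction of a comparison, so a count of 0 is near the background. *Cxcl14*, a chemokine of epithelia, was faint in its brightest probe set (84.2, 74.0 and 91.7), while its other probe set had 70.4, 52.8 and 119 and was 2.26-fold lower at day 7 than at day 56. *Cxcl1*, the neutrophil attractant also called CINC-1, was bright at every age with 3763, 4088 and 4957, 1.32-fold from day 1 to day 56. *Cxcl12*, the homing factor SDF-1, had 2379, 2465 and 3952 in its brightest probe set, and its 3 probe sets gave 1.28-fold to 1.66-fold for day 56 over day 1. *Cxcl16*, a chemokine that is also a membrane-bound scavenger receptor, went from 454 to 568 and 766, 1.69-fold from the first to the last. The interferon-induced *Cxcl10* had 147, 152 and 179. *Cxcl3*, a relative of *Cxcl1*, had 218, 190.3 and 190.4 in the brightest of its 5 probe sets. The bright ones among them ranged from 0.75 to 1.04 in the ratio of day 56 to day 1. The rest were dim at every age (37.5, 38.2 and 38.3, and 13.4, 12.7 and 18.45), where the floor sets the ratio to 1. The brightest probe set of *Cxcl3* is of a type that can share probes with other transcripts, and what they add to its signal was not tested. *Cxcl2* and *Cxcl6*, further relatives in the same gene cluster, were at most faint (64.5, 47.2 and 73.3 for *Cxcl2*, and 60.5, 67.1 and 80.4 for *Cxcl6*).

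Of 23 interleukin family genes, 3 were past 2-fold higher at day 56 than at day 1 (1.65% of all genes) and 1 lower (1.37% of all genes). *Il33* encodes a nuclear alarmin that is released when cells are damaged. Its signal was 128 at day 1, 92.0 at day 7 and 819 at day 56, and its other probe set gave 120.1, 92.8 and 712. Day 56 was 6.42-fold above day 1 (5.92-fold in the other probe set) and 8.90-fold above day 7. The latter ratio was the fourth of all 14217 genes from the low end in TSPCs-7d vs. TSPCs-56d. *Il1a*, the cell-associated form of interleukin 1, had 171, 157 and 767. Day 56 was 4.48-fold above day 1 and 4.90-fold above day 7. The other probe set of *Il1a* was dim in both younger cultures and faint at day 56 (23.6, 18.6 and 87.9), a difference of at least 1.80-fold, which does not pass 2-fold. *Il1b*, the neighbour of *Il1a* on chromosome 3 and the secreted form of interleukin 1, was faint at 65.0, 75.3 and 71.4. *Il1rn*, the receptor antagonist that blocks both, had 48.6, 50.2 and 58.2 and stayed near the dim limit. *Il18*, a family member as well, had 93.1, 90.2 and 121.

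*Il6*, the cytokine of the acute phase response, was the only bright gene of the 65 with a step of over 2-fold upward between day 1 and day 7. Its signal was 301 at day 1, 1011 at day 7 and 1698 at day 56. It was 3.36-fold higher at day 7 and 5.64-fold higher at day 56 than at day 1, ranks 21 and 31 from the top among 14217 genes. From day 7 to day 56 the difference was 1.68-fold. *Il6* was read by a single probe set. *Il11*, of the same family, had 127, 117 and 155, and *Lif*, the leukaemia inhibitory factor, was faint at 89.7, 88.6 and 102. *Il15*, a growth factor of NK and memory T cells, was lowest at day 7 with 147, 88.6 and 258, which was 2.92-fold under day 56 and 1.66-fold under day 1. *Il17b*, an IL-17 family member, had its highest signal at day 1 and its lowest at day 56, with 341, 216 and 159. Its 2.14-fold difference between these was a ratio of 0.51, within 2-fold, when a pseudocount of 32 was added.

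*Csf1*, the growth factor that macrophages need to survive, had signals of 505, 617 and 1212 in its brightest probe set. Day 56 was 2.40-fold above day 1 and 1.97-fold above day 7. Its 3 other probe sets gave 1.29-fold to 1.60-fold for day 56 over day 1, and the mean log2 signal over all 4 gave 1.65-fold, within 2-fold. All 4 were highest at day 56. Of the 7 genes of colony-stimulating factors and the IL-6 family, *Il6* and *Il11* included, *Csf1* and *Il6* were past 2-fold higher at day 56 than at day 1. Of them 0 were lower, where 1.65% of all genes were higher and 1.37% lower. Of the 8 TNF superfamily and *Tslp* genes, 0 were past 2-fold in any comparison. Between 0.802% and 1.71% of all genes passed in each direction of a comparison, so a count of 0 is near the background. *Tnf*, tumour necrosis factor, had 125, 126 and 174 in the brighter of its probe sets, while the other was dim at each age. *Tnfsf12*, known as TWEAK, had 314, 370.1 and 413, and *Tslp*, an epithelial and stromal cytokine, had 145, 131 and 183.

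**Figure D3:**
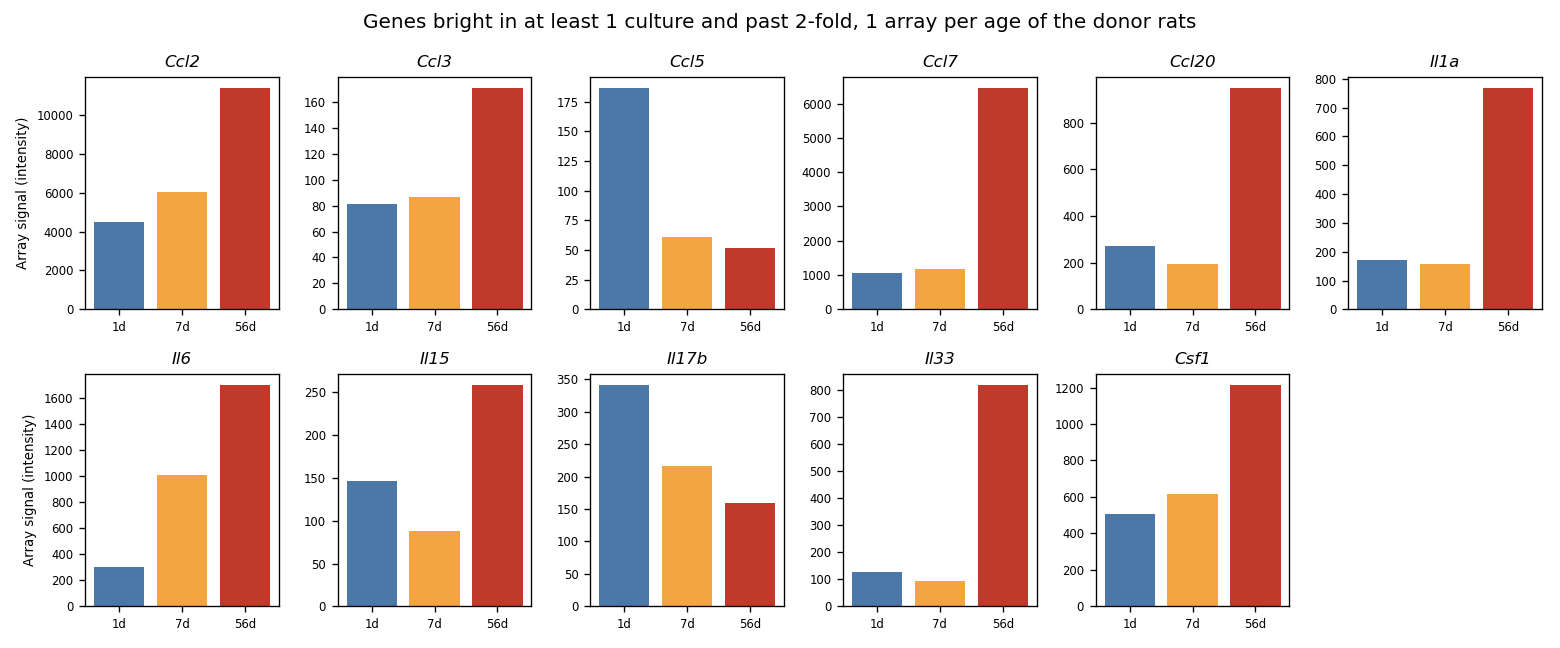
Array signal (intensity units, linear axes from 0, 1 bar per array, by the age of the rats in days) of the 11 genes that were bright in at least 1 culture and past 2-fold in at least 1 comparison. The bar of TSPCs-56d is the highest for 9 of them, and that of TSPCs-1d for *Ccl5* and *Il17b*. The genes were chosen by these same signals, so the age of the highest bar is partly set by the choice.

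Across the array, the log2 ratios of both probe sets of a gene differed by a median of 0.17 in TSPCs-56d vs. TSPCs-1d and by over 0.50, or 1.41-fold, in 10% of the 1590 genes with 2 probe sets bright at every age. This covers differences between probes on the same arrays and not those between cultures. Differences of *Cxcl1*, *Cxcl10*, *Ccl19*, *Il11*, *Tnf*, *Tnfsf12* and *Tslp* between day 1 and day 56 lay under this size. *Il33* was the only one of the 13 genes with several probe sets in which more than 1 was past 2-fold. *Il1a*, *Csf1* and *Cxcl14* passed in 1 probe set each, of 2, 4 and 2.

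**Figure D4:**
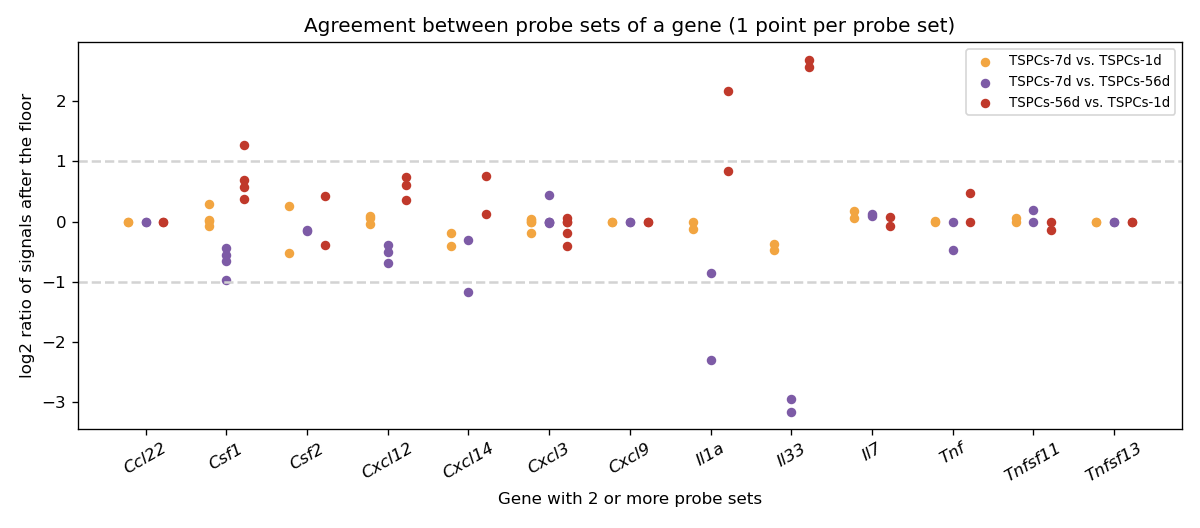
Log2 ratio of signals after the floor for each probe set (1 point) of the 13 genes with 2 or more probe sets in the 3 comparisons, with dashed lines at 2-fold. Both *Il33* probe sets lie above 2-fold in TSPCs-56d vs. TSPCs-1d (5.92 and 6.42), while *Csf1* and *Il1a* have 1 probe set each above it.

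Sequences upstream of the start are shown for *Il6* and *Ccl20*, which were past 2-fold higher at day 56 than at day 1, for *Ccl7*, which was so too, and for *Cxcl1*, which was not. They are the 150 bases before the start in the RefSeq promoter table of GRCr8, given on the strand of the gene from 5′ to 3′, with every match to the NF-kB consensus in capitals. *Il6* lies at chr4:5894576-5894725 on the minus strand, *Ccl20* at chr9:91837009-91837158 on the plus strand, *Ccl7* at chr10:67513945-67514094 on the plus strand and *Cxcl1* at chr14:17479322-17479471 on the minus strand.
Il6: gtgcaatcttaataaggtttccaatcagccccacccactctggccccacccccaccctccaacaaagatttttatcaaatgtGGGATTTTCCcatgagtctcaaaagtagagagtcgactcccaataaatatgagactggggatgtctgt
Ccl20: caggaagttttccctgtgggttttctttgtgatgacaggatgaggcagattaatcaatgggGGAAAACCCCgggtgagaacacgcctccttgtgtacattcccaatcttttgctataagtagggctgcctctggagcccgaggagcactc
Cxcl1: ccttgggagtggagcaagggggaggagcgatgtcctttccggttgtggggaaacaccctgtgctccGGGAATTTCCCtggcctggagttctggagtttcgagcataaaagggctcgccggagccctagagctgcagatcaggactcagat
Ccl7: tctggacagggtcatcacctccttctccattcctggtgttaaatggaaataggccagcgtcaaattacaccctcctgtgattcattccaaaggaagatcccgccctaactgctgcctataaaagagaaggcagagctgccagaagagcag

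The match in *Il6* spans -68 to -59 from the start and reads GGGATTTTCC, that in *Ccl20* spans -89 to -80 and reads GGAAAACCCC as printed, which fits the consensus on the opposite strand. In *Cxcl1* a pair of overlapping matches, 1 on each strand, spans -84 to -74. The table held 49 windows for 47 of the 65 genes, and both strands of the 250 bases before the start were searched. The NF-kB consensus was in 9 of the 49 windows (18.4%) and in 3.54% of all 33469 windows. The 9 genes were *Ccl9*, *Ccl20*, *Cxcl1*, *Cxcl2*, *Cxcl6*, *Cxcl10*, *Cxcl11*, *Il6* and *Tslp*. *Cxcl1*, *Cxcl2* and *Cxcl6* are relatives in the same gene cluster, and *Cxcl10* and *Cxcl11* are neighbours. Matches of any motif within these groups may not be independent, which the shares do not allow for. Among the 9 genes were bright genes past 2-fold (*Il6* and *Ccl20*), bright genes within 2-fold in every comparison (*Cxcl1*, *Cxcl10* and *Tslp*) and genes that were never bright. A match is a description of the letters and not of binding. TGANTCA, the AP-1 motif, was in 8 of 49 windows (16.3%, against 6.34% of all), among them those of *Ccl7*, from -73 to -67, and *Il1a*. TGACGTCA, the cyclic AMP response element, was in the window of *Il6* and in 1.59% of all. TATAAA on the strand of the gene was in 14 of 49 windows (28.6%, against 8.06% of all). *Il33* had windows at a pair of starts, and neither held the NF-kB consensus. *Ccl2*, *Ccl3* and *Csf1* had no window in the table.

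The receptors for these ligands were examined next. Of 17 measured chemokine receptor genes, 4 were bright in at least 1 culture and 8 were dim in all. *Ccr2*, the receptor of CCL2 and CCL7, was dim at 12.5, 10.5 and 15.3, and *Ccr6*, the receptor of CCL20, at 37.1, 44.4 and 42.3. *Ackr3*, a scavenging receptor of CXCL12, was lowest at day 7 with 934, 364.5 and 1126, which was 2.56-fold under day 1 and 3.09-fold under day 56. *Cxcr4*, the signalling receptor of CXCL12, had 274, 142 and 138 in its brightest probe set, 1.99-fold lower at day 56 than at day 1. Of its other 2 probe sets, 1 was dim at every age (21.0, 21.3 and 25.6). The last was dim at both younger ages and faint at day 56 (39.0, 48.0 and 73.1), which is the opposite direction. *Ackr4*, a scavenger of CC chemokines, was dim in both younger cultures and faint at 100.4 at day 56, a difference of at least 2.05-fold. In all, 1 of 17 chemokine receptor genes was past 2-fold higher (1.65% of all genes) and 0 lower (1.37%) in TSPCs-56d vs. TSPCs-1d. In TSPCs-7d vs. TSPCs-1d, 1 was lower (0.802% of all genes), in TSPCs-7d vs. TSPCs-56d, 2 were lower (1.32%), and 0 were higher in either.

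Of 31 interleukin and colony-stimulating factor receptor genes, 14 were bright in at least 1 culture, and *Il17re*, a receptor of the IL-17 family, was the single one past 2-fold by the brightest probe set, where 1.65% of all genes were higher (81.9, 112.5 and 176, 2.15-fold from day 1 to day 56, and 2.11-fold in its other probe set). *Il1rl1*, the receptor of IL-33, was bright at 5053, 7401 and 6507, within 2-fold. Its other probe set had 78.6, 166 and 116, which was 2.11-fold higher at day 7 than at day 1. *Il1r1*, the receptor of IL-1, had 833, 822 and 1356 in its brightest probe set, the other probe sets being dim or at the dim limit. *Il6st*, the shared signalling subunit gp130 of the IL-6 family, had 1242, 1459 and 2356, and its 4 probe sets were 1.54-fold to 1.90-fold higher at day 56 than at day 1. *Il6r*, the specific receptor of IL-6, was dim or near the dim limit (39.8, 40.3 and 50.7), and *Csf1r*, the receptor of CSF1 and a macrophage marker, was faint at 76.9, 76.5 and 78.8. Of 18 TNF receptor genes, 1 was past 2-fold higher at day 56 than at day 1 (1.65% of all genes), *Cd40*, the receptor of CD40 ligand (44.6, 56.6 and 100, at least 2.05-fold and never bright), and 0 were lower (1.37%). In this list 1 gene was lower at day 7 than at day 1 (0.802% of all genes) and 2 were lower than at day 56 (1.32%). *Relt*, an orphan member, was 3.92-fold and 4.38-fold lower at day 7 than at day 1 and day 56 (387, 98.8 and 433). *Tnfrsf11b*, the decoy receptor osteoprotegerin, had 2395, 1334 and 3788, 2.84-fold lower at day 7 than at day 56.

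Genes of the NF-kB pathway and its known response genes counted 3 of 27 past 2-fold higher at day 56 than at day 1 and 0 lower. These were *Tnip1*, an inhibitor of NF-kB signalling (661, 1110 and 1877, 2.84-fold), *Nfkbiz*, a nuclear co-regulator that acts on *Il6* (508, 664 and 1133, 2.23-fold, but 1.36-fold in its other probe set), and *Sod2*, the mitochondrial superoxide dismutase (1011, 1306 and 2156, 2.13-fold). Of all genes 1.65% passed in this direction and 1.37% were lower. The median log2 ratio of the list was 0.14 against 0.00 over all genes. For TSPCs-7d, 0 of 27 passed in either comparison, where between 0.802% and 1.71% of all genes passed in each direction. Within 2-fold, the largest ratios of day 56 to day 1 were those of *Icam1* (1049, 1258 and 1874), *Zc3h12a* (290, 430.5 and 507) and *Nfkbia* (748, 914.5 and 1136). The feedback inhibitor gene *Tnfaip3* had 339, 348 and 337, and *Ptgs2*, the inducible prostaglandin synthase, was highest at day 1 with 4059, 2869 and 3146. By the brightest probe set, *Bcl3*, *Chuk*, *Ikbkb* and *Nfkbib* were also slightly lower at day 56 than at day 1. *Vcam1*, the adhesion molecule for leukocytes, was dim at each age.

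**Figure D5:**
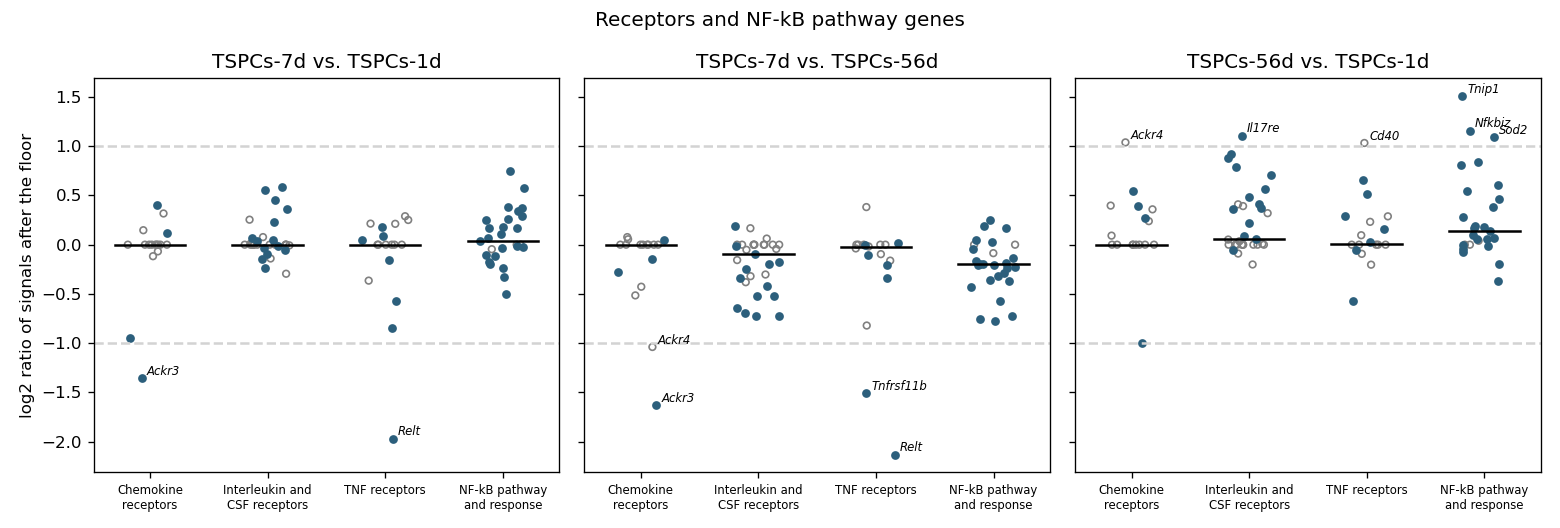
Log2 ratio of signals after the floor for genes of 4 lists (17 chemokine receptors, 31 interleukin and colony-stimulating factor receptors, 18 TNF receptors and 27 genes of the NF-kB pathway and response; 1 point per gene, filled where bright in at least 1 culture) in the 3 comparisons, with a bar at each median and dashed lines at 2-fold. Genes past 2-fold are named, 3 of them in the NF-kB list of TSPCs-56d vs. TSPCs-1d.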

How the data were processed

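Total RNA of TSPCs-1d, TSPCs-7d and TSPCs-56d (passage 2, 1 array each) was labelled and applied to Affymetrix whole-genome rat arrays. The authors normalized and summarized the scans with MAS5 and RMA according to the methods, whereas the submitters' processing notes name MAS5 alone; how these were combined is not stated. The deposited values are intensity signals on a linear scale for 31042 probe sets. No detection call was used, so dim and bright rest on the percentiles of all signals (25th, 48.9; median, 110.1). The number of arrays limits the precision. With 1 array per group no test was made, and fold change was the ratio of signals, as in the methods, with a cutoff of 2 and a floor at the 25th percentile.

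The platform's annotation gave 1 symbol to 20826 probe sets, several to 436 and none to 9780. All 65 genes matched the RefSeq gene table of GRCr8. A gene was represented by its probe set of the highest mean signal. Named are the genes past 2-fold and bright in at least 1 culture, those bright in all 3, and *Il6*, *Ccl2*, *Cxcl12*, *Csf1*, *Il33*, *Il1b*, *Il1rn*, *Tnf* and *Lif*; other names were added after their values were seen. The members, 10 lists of receptors, NF-kB genes, other cytokines and cell type markers, and the rule were chosen with earlier results of these data known. Other treatments of low signals, normalizations, cutoffs and probe set choices were tried. The calculation was tested on simulated data. Calculations ran in Python 3.11.15 (numpy 2.4.6, pandas 2.3.3), and plots were drawn with matplotlib 3.10.9.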

Additional observations from a re-analysis of the deposited data

How the results depend on the processing

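Of the 17 ratios past 2-fold among the 24 named genes, 0 reversed under any alternative. Floors and pseudocounts keep the order of a pair of signals, so a reversal was hardly possible and its absence says little. Ratios of *Ccl3*, *Ccl5*, *Il17b* and *Csf1* fell within 2-fold under alternatives other than the olfactory receptor floor described below. The counts of probe sets past the cutoff (2 for day 7 over day 1, 8 for day 7 over day 56 and 11 for day 56 over day 1) were 5, 16 and 19 at a cutoff of 1.5, and 5 and 7 in the latter comparisons at a cutoff of 3. For day 7 over day 1 there was 1 with a floor at the median and 1 among the 30 probe sets with a mean above it. A floor at the 95th percentile of olfactory receptor genes lay at 1056, since only 6 such probe sets were named, and left 0, 1 and 2 probe sets, and 6 genes bright in place of 24. Under so high a floor 14 of the 17 ratios were within 2-fold. The other alternatives for these counts stayed within 1.5 times. With 1 array per age no replicate could be left out, and background correction and scan batch could not be varied, since probe-level data were not analysed here.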

Other observations

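Cytokine genes whose symbols lie outside the naming pattern were also measured. Of 16 measured genes, 7 were bright in at least 1 culture, 7 were dim in all, and 0 were past 2-fold in any of the 3 comparisons. Over all genes between 0.802% and 1.71% passed in each direction, so a count of 0 is near the background. *Mif*, the macrophage migration inhibitory factor, was highest in TSPCs-1d (3090, 1934 and 1980.4 at day 1, day 7 and day 56, 1.56-fold between the first and the last). *Kitlg*, the stem cell factor, had 275, 331 and 462, and *Clcf1*, of the IL-6 family, had 121, 142 and 186. Of the 10 T and NK cell markers, *Cd4* alone was bright in any culture, with 127, 45.2 and 106.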
